A study of Homo sapiens with 15 samples.

Results

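Unexposed cultures of BEAS-2B, an immortalized human bronchial epithelial cell line, were compared at 15 weeks and at 24 h to describe how gene expression moved during passaging without any particle exposure. The libraries were chosen by their labels alone: 2 control libraries of 24 h and 2 control libraries of 15 weeks, which are 4 of the 15 libraries of the series. These control cultures received no treatment and were grown in DMEM with 10% fetal bovine serum and 2.5 µg/mL Plasmocin, an antibiotic against mycoplasma, and the study's methods describe weekly passaging beside the exposed cultures. The exposed cultures of the same line received 50 µg/mL polyethylene terephthalate nanoplastics (PET-NPLs) for 24 h (2 libraries) or 15 weeks (2 libraries). All libraries of 24 h and 15 weeks carry the label of batch 1, whereas 3 control and 4 exposed libraries of 30 weeks carry that of batch 2. The model is 1 immortalized line, and the labels do not say whether replicates were separate cultures, so the p-values below measure the spread between libraries, which may be technical.

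Bronchial epithelial cells build intermediate filaments from keratins and are held together by cadherins, desmosomes and tight junctions. Loss of these parts together with gain of matrix, adhesion and motility genes is what the field calls epithelial-mesenchymal transition (EMT). Continuous lines usually carry rearranged chromosomes, and variants that divide faster can take over a culture, so that expression may move gene by gene or along a whole chromosome arm.

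Whole-transcriptome gene counts were compared as CPM, which are counts scaled to a common library size and composition, and as log2 fold changes of 15 weeks over 24 h. The 24 h controls held 27255398 and 28605451 gene counts and the 15-week controls 28600021 and 30245594. A count of 3 corresponded to between 0.0885 and 0.105 CPM, below which a gene was at the floor of detection. Replicates correlated across genes with Pearson's r = 0.991 at 24 h and 0.990 at 15 weeks, and their counts differed by more than sampling noise. A set of 6 abundant small noncoding RNAs took 12.1 and 12.2% of counts at 24 h and 11.4 and 11.3% at 15 weeks. Results are for bulk RNA, in which fewer cells of a type and less RNA per cell cannot be told apart.

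Between 24 h and 15 weeks, the transcriptome of the unexposed cells moved broadly, in both directions. Of 16740 genes tested, 4174 were called at an adjusted p under 0.05 (edgeR quasi-likelihood test), which is 24.9% of the genes tested. Higher levels at 15 weeks were called for 2133 genes (12.7%) and lower levels for 2041 genes (12.2%). The change reached at least 2-fold for 1172 of the genes that rose and 996 of those that fell, and at least 8-fold for 293 and 232 genes. Values of the 2 groups did not overlap for 11531 genes (68.9%), so that with 2 libraries in a group the absence of overlap says little by itself. Among the called genes, 4171 did not overlap. With 1 library left out, the count of called genes was 2474 without 24 h replicate 1, 2693 without 24 h replicate 2, 2573 without 15-week replicate 1 and 2462 without 15-week replicate 2. Fits without the 30-week libraries called more, 6841 with batch 1 alone and 6800 with the 4 controls alone. When a library is left out its group holds 1 library, which is assumed to vary like the other groups, and these include the 30-week groups with a biological coefficient of variation of 0.183 and 0.212, against 0.111 and 0.0781 in the 24 h and 15-week controls. Genes called in all 4 of the leave-one-out fits numbered 1835, and apart from CD68 and VWF, every gene described below as having risen or fallen was among them.

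Markers were read first to check the label. Of 20 airway epithelial markers, 11 were tested, and FOXA2, GRHL2 and OVOL1 had no count in any of the 4 control libraries. TP63, KRT14 and SOX2, which mark basal and proximal airway cells, and NKX2-1 had at most 3 counts in each of them. The summed level of the list was 877 and 970.5 CPM at 24 h and 859 and 911 CPM at 15 weeks, most of it from KRT8 and KRT18. Of 21 mesenchymal and fibroblast markers, 18 were tested, and their summed level was 2129 and 2284 CPM at 24 h and 1650.0 and 1654 CPM at 15 weeks, with DCN and LUM at 0. Ciliated and secretory markers summed to 0.173 and 0.140 CPM at 24 h and 0.790 and 0.619 CPM at 15 weeks, with 2 of 10 tested and neither called. Endothelial and blood cell markers summed to 7.17 and 7.0 CPM and then 10.2 and 11.3 CPM, and both called members of the 4 tested, CD68 and VWF, lost the call when a library was left out, CD68 without any 1 of the 4 and VWF without 24 h replicate 2. BEAS-2B thus carried simple keratins and mesenchymal transcripts at both times. The basal markers TP63 and KRT14 and the ciliated and secretory markers were at or near 0.

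Several epithelial genes fell. None of the 11 tested airway epithelial markers rose and 5 fell, with a median log2 fold change of -1.43 against -0.02 for all genes tested. Among 13 keratins tested, 5 fell and 1 rose (0 or 1 with 1 library left out), with a median of -1.71. KRT7, a keratin of simple and glandular epithelia, measured 1215 and 1414 CPM at 24 h and 23.4 and 12.7 CPM at 15 weeks. It was 72.9-fold lower, with a log2 fold change of -6.19 (SE 0.42, edgeR adjusted p = 3.4e-08). KRT17, a keratin of stressed and basal epithelium, went from 138 and 166 CPM to 2.53 and 1.00 CPM (log2 fold change -6.43, SE 0.55, edgeR adjusted p = 4.6e-07), with -7.24 when 15-week replicate 1 was left out. The groups lay far apart for both. KRT81, a hair keratin, fell from 16.3 and 16.3 CPM to 0.853 and 0.678 CPM, and KRT19 from 9.87 and 12.1 CPM to 3.25 and 1.65 CPM. The main keratin pair of the line did not pass the test. KRT8 measured 450.1 and 513 CPM and then 521 and 569 CPM (edgeR adjusted p = 0.55), and its partner KRT18 measured 310.2 and 355 CPM and then 306 and 314 CPM (edgeR adjusted p = 0.71).

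The pioneer transcription factor FOXA1, which opens chromatin at epithelial enhancers, measured 6.48 and 6.47 CPM at 24 h and 0.0632 and 0.0590 CPM at 15 weeks (edgeR adjusted p = 4.9e-06). Its pooled counts were 372 at 24 h and 4 at 15 weeks, a ratio of 106 after scaling with a 95% counting interval of 41.1 to 392. E-cadherin, CDH1, was already low at 24 h with 0.935 and 0.735 CPM and was at the floor at 15 weeks with 0.0632 and 0.0885 CPM, a ratio of 11 with a counting interval of 4.38 to 35.3. Counting intervals cover counting error only.

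Of 33 genes of desmosomes, tight junctions and cadherins, 17 fell and 2 rose, with a median of -0.47. With any 1 library left out, fewer fell and no more rose. Desmoplakin, DSP, which ties keratin filaments to desmosomes, went from 96.2 and 78.1 CPM to 26.5 and 24.8 CPM (log2 fold change -1.76, SE 0.22, edgeR adjusted p = 2.2e-05). P-cadherin, CDH3, went from 17 and 19.5 CPM to 1.74 and 0.944 CPM (log2 fold change -3.77, SE 0.35, edgeR adjusted p = 1e-06). The fall was not limited to epithelial cadherins. CDH11, a cadherin of mesenchymal cells, went from 2.63 and 3.78 CPM to 0.0632 and 0 CPM, and CDH6 from 1.94 and 2.06 CPM to 0 and 0.0885 CPM. N-cadherin, CDH2, measured 153 and 158 CPM at 24 h and 158 and 154 CPM at 15 weeks and was not called (edgeR adjusted p = 0.99).

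Mesenchymal markers did not move one way. Of 18 tested, 3 rose and 3 fell, with a median of -0.35. These counts were close to the shares over all genes tested, 12.7% called higher and 12.2% called lower. The receptor of platelet-derived growth factor, PDGFRB, rose from 13.6 and 11.1 CPM to 66.9 and 73.6 CPM (log2 fold change 2.51, SE 0.34, edgeR adjusted p = 4.9e-05). Transcriptional repressors of the EMT programme were split. ZEB2 rose from 11.4 and 10.0 CPM to 41.7 and 43.6 CPM (log2 fold change 2.00, SE 0.17, edgeR adjusted p = 3.5e-07). ZEB1 fell from 51.3 and 49.3 CPM to 32.0 and 31 CPM (log2 fold change -0.68), and SNAI2 fell from 14.9 and 16.8 CPM to 3.73 and 5.66 CPM (log2 fold change -1.75). The intermediate filament gene VIM measured 1376 and 1464 CPM and then 1030.3 and 1040.2 CPM and missed the threshold (edgeR adjusted p = 0.055). Its log2 fold change lay between -0.50 and -0.39 under the alternatives, and 7 of 17 of them called it. THY1 measured 189.7 and 223 CPM and then 209 and 214 CPM (edgeR adjusted p = 0.9). Of 26 genes analysed here from the EMT panel of the paper, 5 rose (3 or 4 with 1 library left out) and 6 fell, with a median of -0.26. That panel was chosen on these samples and so is not independent evidence.

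The genes with the deepest falls, beside the keratins above, had varied roles. Epiregulin, EREG, a ligand of the epidermal growth factor receptor, went from 15.7 and 18.5 CPM to 0.158 and 0.147 CPM. Its log2 fold change of -6.77 (SE 0.50, edgeR adjusted p = 8.8e-08) was among the 10 lowest of genes with an average of at least 5 CPM. The complement component C3 went from 26.8 and 26.0 CPM to 0.727 and 0.0885 CPM, a log2 fold change of -6.03 that was -8.15 without 15-week replicate 1 and -5.17 without 15-week replicate 2. The clearance receptor of natriuretic peptides, NPR3, went from 57.5 and 62.6 CPM to 1.17 and 0.944 CPM (log2 fold change -5.83). Stratifin, SFN, a 14-3-3 protein of epithelia, fell by 5.15 on the log2 scale, and SPINT2, an inhibitor of epithelial serine proteases, fell by 4.91. CD24, a mucin-like surface glycoprotein, went from 864 and 976 CPM to 49.8 and 49.1 CPM (log2 fold change -4.22, SE 0.19, edgeR adjusted p = 5.5e-10).

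Some genes rose from near 0 at 24 h. Semaphorin 3D, SEMA3D, a secreted guidance cue, went from 0.797 and 0.840 CPM to 78.3 and 83.7 CPM (log2 fold change 6.62, SE 0.27, edgeR adjusted p = 3e-10). NCAM1, the neural cell adhesion molecule, went from 0.312 and 0.280 CPM to 20.6 and 27.1 CPM (log2 fold change 6.31, SE 0.30, edgeR adjusted p = 6.4e-10). PPP2R2B, a regulatory subunit of protein phosphatase 2A that is abundant in brain, went from 0.797 and 0.595 CPM to 54.6 and 51.0 CPM. In each case both 15-week libraries lay far above both 24 h libraries. PODXL2, a sialomucin related to podocalyxin, rose from 0.416 and 0.385 CPM to 37.9 and 40.6 CPM, and GYG2, a primer of glycogen synthesis, from 0.139 and 0.105 CPM to 20.4 and 18.2 CPM.

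A few genes switched between absence and presence. From 3 counts or fewer in both 24 h libraries to at least 1 CPM in both 15-week libraries went 38 genes, and 25 went the opposite way. MARK1, a kinase of microtubule-associated proteins, had no count at 24 h and measured 5.69 and 6.31 CPM at 15 weeks, which is at least 57.4-fold higher when 24 h is set to 3 counts per library. FGFBP1, which releases fibroblast growth factors from matrix, measured 4.12 and 5.00 CPM at 24 h and had no count at 15 weeks, at least 49.8-fold lower. The netrin receptor UNC5D also measured 4.12 and 5.00 CPM at 24 h, with no count at 15 weeks. CCDC85A had 1 count in both 24 h libraries together and 736 at 15 weeks, where it measured 11 and 11.5 CPM. CACNA2D1, an auxiliary subunit of calcium channels, had pooled counts of 4 and 906, a ratio of 198 with a counting interval of 77.3 to 730.1. The zinc finger gene ZNF793 went the other way with 483 pooled counts at 24 h and 3 at 15 weeks, a ratio of 184 with a counting interval of 62.5 to 894.

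**Figure D1:**
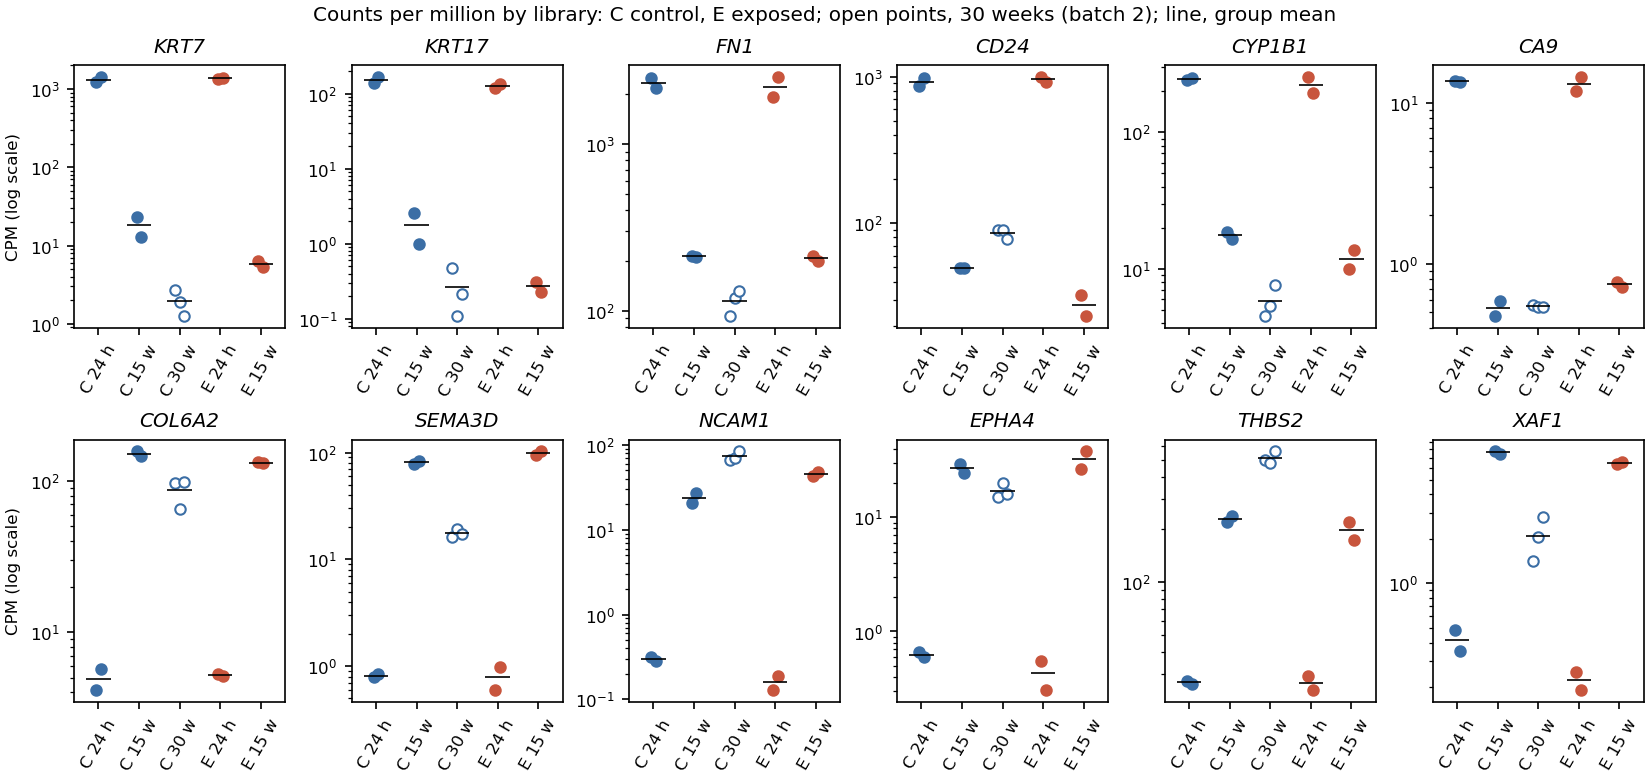
Level of 12 named genes in every control library (24 h and 15 weeks, and 30 weeks as open points) and in the exposed libraries of 24 h and 15 weeks, in CPM on a log axis; each point is 1 library. KRT7 fell from 1215 and 1414 CPM to 23.4 and 12.7 CPM in controls, while SEMA3D rose from 0.797 and 0.840 CPM to 78.3 and 83.7 CPM, and the exposed libraries moved in the same direction for all 12 genes.

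The matrix changed in composition. Among 32 collagen genes tested, 14 rose and 6 fell, and the median log2 fold change was 0.64. Fewer rose with any 1 library left out. The 3 main chains of collagen VI, a microfibrillar collagen around cells, all rose. COL6A2 went from 4.12 and 5.67 CPM to 157 and 147 CPM (log2 fold change 4.95, SE 0.22, edgeR adjusted p = 5e-10). COL6A1 went from 12.9 and 14.6 CPM to 101 and 99.6 CPM (log2 fold change 2.87), and COL6A3 from 1.49 and 0.735 CPM to 6.25 and 8.50 CPM (log2 fold change 2.72, and 3.32 without 24 h replicate 1). COL18A1, a basement membrane collagen, rose from 26.2 and 23 CPM to 157 and 177 CPM (log2 fold change 2.76). COL8A1, a short-chain collagen, fell from 130.4 and 136 CPM to 9.41 and 15.7 CPM (log2 fold change -3.41). The basement membrane chain COL4A1 measured 119 and 130.3 CPM and then 147 and 150.4 CPM (edgeR adjusted p = 0.2), and COL1A1 measured 19 and 8.43 CPM and then 11.2 and 8.76 CPM (edgeR adjusted p = 0.54), and neither was called.

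Of 40 matrix glycoproteins and elastic fibre genes, 15 fell and 6 rose, with a median of -0.23, and fewer fell with any 1 library left out. Fibronectin, FN1, which links matrix to integrins, was at 2490.2 and 2149 CPM at 24 h and at 212 and 211 CPM at 15 weeks (log2 fold change -3.45, SE 0.26, edgeR adjusted p = 9.9e-08). Thrombospondin 1, THBS1, went from 4836 and 4226 CPM to 854 and 1395 CPM (log2 fold change -2.01), whereas its relative THBS2 went from 27.5 and 26.5 CPM to 219.8 and 237 CPM (log2 fold change 3.08, SE 0.18, edgeR adjusted p = 9.1e-09). The paralogs thus moved in opposite directions. TGFBI, a matrix protein induced by transforming growth factor beta, fell from 3314 and 3889.8 CPM to 751 and 809 CPM (log2 fold change -2.21). Tenascin C, TNC, fell from 471 and 445 CPM to 166 and 190.4 CPM. The elastic fibre gene FBLN2 rose from 123 and 130.0 CPM to 349 and 372 CPM, and CCN3, a matricellular protein, rose from 0.589 and 0.350 CPM to 8.56 and 7.58 CPM.

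Collagen processing and crosslinking genes fell in 7 and rose in 2 of 16 tested, with a median of -0.23. Lysyl oxidase, LOX, which crosslinks collagen and elastin, fell from 109 and 96.4 CPM to 19.2 and 20.5 CPM (log2 fold change -2.37, SE 0.17, edgeR adjusted p = 5e-08). SERPINH1, the collagen chaperone, fell from 137 and 156 CPM to 65.4 and 62.6 CPM, and PCOLCE, an enhancer of procollagen cleavage, rose from 0.970 and 1.08 CPM to 5.78 and 5.13 CPM. Matrix proteases and their inhibitors fell in 15 and rose in 3 of 27, with a median of -0.49, and the count that fell was 7 or 8 with any 1 of the 4 control libraries left out. Stromelysin 1, MMP3, went from 7.62 and 9.62 CPM to 0.442 and 1.00 CPM (log2 fold change -3.56, and -4.27 without 15-week replicate 2), and MMP19 rose from 1.52 and 1.89 CPM to 6.29 and 6.96 CPM (log2 fold change 1.95). Integrins, the receptors of these matrix proteins, fell in 7 and rose in 4 of 15, with a median of -0.51. With any 1 library left out, fewer integrins fell and fewer rose. Integrin beta 4, ITGB4, which with ITGA6 forms the laminin receptor of hemidesmosomes, fell from 58.8 and 37.9 CPM to 5.21 and 4.93 CPM (log2 fold change -3.25, SE 0.47, edgeR adjusted p = 0.00011). ITGA6 fell from 342 and 399.9 CPM to 115 and 111 CPM. ITGA4, a fibronectin receptor subunit better known from leukocytes, rose from 0.831 and 1.01 CPM to 11.8 and 9.91 CPM (log2 fold change 3.55).

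Genes of the transforming growth factor beta (TGF-beta) pathway, which drives matrix synthesis and EMT, mostly lay lower at 15 weeks. Of 20 tested, 12 fell and 1 rose, with a median of -0.81, and fewer fell with any 1 library left out. The type II receptor TGFBR2 fell from 173 and 169.7 CPM to 64.8 and 66.3 CPM (log2 fold change -1.39, SE 0.16, edgeR adjusted p = 1.3e-05), and the ligand TGFB2 from 71.2 and 71.8 CPM to 43.0 and 37.7 CPM (log2 fold change -0.83). Feedback targets fell as well: the inhibitor SMAD7 by 0.80, PMEPA1 by 1.85 and the activin antagonist FSTL3 by 1.91 on the log2 scale. SMAD7 lies in a region of chromosome 18 whose tested genes had a median log2 fold change of -0.65, close to its own. PMEPA1 and FSTL3 lie outside the shifted regions described below. The member that rose was BAMBI, a decoy receptor that blocks the pathway, from 2.56 and 3.57 CPM to 15.7 and 11.7 CPM (log2 fold change 2.16, SE 0.23, edgeR adjusted p = 4.3e-06). In the related BMP pathway, 6 of 24 fell and 4 rose, with a median of -0.23. ID1, an inhibitor of differentiation that BMP signals induce, fell from 375 and 426 CPM to 96.1 and 110.4 CPM (log2 fold change -1.96), and the secreted BMP antagonist GREM1 fell from 263 and 275 CPM to 87.6 and 97.1 CPM.

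Contractile and smooth muscle genes fell in 11 and rose in 1 of 26, with a median of -0.60. The count that fell was between 7 and 10 when 1 library was left out. Transgelin, TAGLN, an actin-binding protein, fell from 263 and 302 CPM to 59.1 and 52.8 CPM (log2 fold change -2.34, SE 0.19, edgeR adjusted p = 2.5e-07). MYLK, the kinase of myosin light chain, was the member that rose, from 59.2 and 54.1 CPM to 264 and 308 CPM (log2 fold change 2.34, SE 0.17, edgeR adjusted p = 7.1e-08). Targets of YAP and TEAD, factors that respond to cell spreading and stiffness, fell in 12 and rose in 1 of 26, with a median of -0.46, and 7 to 10 fell with 1 library left out. Caveolin 1, CAV1, the coat protein of caveolae, fell from 1191 and 1279 CPM to 305 and 288 CPM (log2 fold change -2.06), and IGFBP3, a binding protein of insulin-like growth factors, fell from 802 and 924 CPM to 67.8 and 87.8 CPM (log2 fold change -3.47, SE 0.21, edgeR adjusted p = 1.3e-08). The usual YAP reporters CCN1 and CCN2 were not called in the main fit. Of 17 alternatives, 5 called CCN1 and 0 called CCN2, with log2 fold changes of CCN1 between -0.69 and -0.23. CCN1 measured 180.3 and 131 CPM and then 103 and 120.3 CPM (edgeR adjusted p = 0.18), and CCN2 measured 97.3 and 85.7 CPM and then 76.5 and 79.8 CPM (edgeR adjusted p = 0.43).

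Of 27 ligands and receptors of the EGF and FGF families, 10 fell, 17 were not called and none rose, with a median of -0.50. Up to 5 rose under the alternatives, and fewer fell with any 1 library left out. Besides epiregulin, the ligands AREG (3.19 and 3.29 CPM, then 0.316 and 0.118 CPM) and TGFA (12.1 and 14.7 CPM, then 3.70 and 6.02 CPM) fell. DUSP4, a phosphatase that is induced by and shuts off ERK signalling, fell from 146 and 159 CPM to 17.9 and 23.3 CPM (log2 fold change -2.89, SE 0.19, edgeR adjusted p = 3.3e-08). FGF5 fell from 19.2 and 14.9 CPM to 1.33 and 1.56 CPM. In the insulin-like growth factor pathway, 6 of 14 fell, with a median of -0.39, among them the docking protein IRS1 (51.7 and 46.6 CPM, then 7.64 and 10.0 CPM) and IGFBP4 (187 and 135 CPM, then 28.6 and 28.9 CPM).

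Wnt genes moved both ways, with 5 of 28 higher, 9 lower (6 to 8 with 1 library left out) and a median of -0.01 whose sign turned under upper-quartile scaling. The secreted Wnt antagonist SFRP1 rose from 10.4 and 9.03 CPM to 55.3 and 51.5 CPM (log2 fold change 2.46, SE 0.18, edgeR adjusted p = 8.4e-08), and the receptor FZD8 fell from 2.46 and 3.22 CPM to 0.0948 and 0.118 CPM. In the NOTCH pathway 4 of 16 rose (2 or 3 with 1 library left out) and 2 fell, with a median of 0.04. The effectors split: HES1 fell from 5.09 and 5.95 CPM to 1.17 and 1.09 CPM (log2 fold change -2.28), and HEY1 rose from 0.727 and 0.840 CPM to 3.00 and 3.60 CPM (log2 fold change 2.07). Semaphorins, ephrins and other guidance genes, which steer axons and also position epithelial and vascular cells, were called in 20 of 31, with 9 higher and 11 lower and a median of -0.12. The ephrin receptor EPHA4 rose from 0.658 and 0.595 CPM to 29.2 and 24.4 CPM (log2 fold change 5.41, SE 0.26, edgeR adjusted p = 1.1e-09), and its relative EPHA5 from 0.139 and 0.0700 CPM to 4.80 and 6.78 CPM. The semaphorin co-receptor NRP2 rose from 2.53 and 1.71 CPM to 16.2 and 15.5 CPM, while the ephrin EFNB2 fell from 12.1 and 11.9 CPM to 2.75 and 1.59 CPM and SEMA3A from 86.1 and 93.4 CPM to 29.4 and 30.3 CPM. Members of 1 family thus moved in opposite directions, SEMA3D up and SEMA3A down.

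Cytokines and chemokines fell in 9 and rose in 1 of 23, with a median of -0.67 and 6 to 8 lower with 1 library left out. The interleukin 6 family cytokine LIF fell from 12.3 and 12.9 CPM to 1.80 and 2.92 CPM (log2 fold change -2.41, SE 0.33, edgeR adjusted p = 6e-05), and the neutrophil chemokine CXCL1 from 3.05 and 3.43 CPM to 0.411 and 0.413 CPM (log2 fold change -2.96). IL6 itself measured 1.04 and 1.05 CPM and then 0.600 and 0.560 CPM and was not called (edgeR adjusted p = 0.26). Of 23 AP-1 and immediate early genes, 8 fell and none rose, with a median of -0.49, and only 3 to 5 fell with 1 control library left out. DUSP1 fell from 48.2 and 56.5 CPM to 25.4 and 25.6 CPM and KLF6 from 137 and 123 CPM to 54.9 and 60.1 CPM, in all of those fits.

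Hypoxia and glycolysis genes fell far more often than they rose. Of 33 tested, 17 fell and 1 rose, with a median of -0.54 and 12 to 14 lower with 1 library left out. These genes are switched on by hypoxia-inducible factors, which bind a short core in promoters and enhancers when oxygen is low. Carbonic anhydrase 9, CA9, which exports acid and is a standard hypoxia reporter, fell from 13.6 and 13.5 CPM to 0.474 and 0.590 CPM (log2 fold change -4.66, SE 0.24, edgeR adjusted p = 1.7e-09). The angiogenic factor VEGFA fell from 34.6 and 42.7 CPM to 8.47 and 7.58 CPM (log2 fold change -2.27), and the peptide hormone adrenomedullin, ADM, from 94.0 and 106 CPM to 22.0 and 20.1 CPM (log2 fold change -2.24). Genes of glycolysis changed less. Lactate dehydrogenase A, LDHA, fell from 1421 and 1456 CPM to 617 and 611 CPM (log2 fold change -1.23, SE 0.15, edgeR adjusted p = 1.8e-05), and the glucose transporter SLC2A1 from 237 and 246 CPM to 107 and 103 CPM (log2 fold change -1.21). HIF1A, the oxygen-regulated subunit of the factor itself, fell from 519 and 571 CPM to 204 and 210.0 CPM (log2 fold change -1.39, edgeR adjusted p = 8.8e-05). HIF1A lies on chromosome 14, whose tested genes had a median log2 fold change of -0.67. Culture density and oxygen were not measured in these files.

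The promoters of 3 of the genes that fell are shown because they carry the core that hypoxia-inducible factors bind, written as ACGTG or GCGTG and searched on both strands. CACGTG holds the core on both strands and is counted once for each, and overlapping matches run together in the marked letters. Each line holds the 250 bases before the RefSeq start site (GRCh38.p14), 5′ to 3′ on the gene's strand, with matches in capitals: LDHA at chr11:18394313-18394562 (+ strand, 5 matches), CA9 at chr9:35673678-35673927 (+ strand, 1 match) and ANKRD37 at chr4:185396591-185396840 (+ strand, 3 matches).
LDHA: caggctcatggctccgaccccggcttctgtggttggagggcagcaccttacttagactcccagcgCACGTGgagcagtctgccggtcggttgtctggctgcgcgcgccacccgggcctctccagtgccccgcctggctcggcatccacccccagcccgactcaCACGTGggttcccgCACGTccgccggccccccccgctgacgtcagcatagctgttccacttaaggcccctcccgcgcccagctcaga
CA9: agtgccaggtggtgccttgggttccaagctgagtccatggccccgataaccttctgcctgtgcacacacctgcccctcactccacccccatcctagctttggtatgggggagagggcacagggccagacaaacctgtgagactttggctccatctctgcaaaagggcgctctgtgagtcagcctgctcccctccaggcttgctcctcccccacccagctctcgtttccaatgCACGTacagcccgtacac
ANKRD37: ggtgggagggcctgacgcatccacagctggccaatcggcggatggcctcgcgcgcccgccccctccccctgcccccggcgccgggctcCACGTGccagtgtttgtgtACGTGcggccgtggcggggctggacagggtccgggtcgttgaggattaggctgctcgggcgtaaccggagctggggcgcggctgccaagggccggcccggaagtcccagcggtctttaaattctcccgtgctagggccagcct
Of the 33 tested hypoxia and glycolysis genes, 29 were found in the promoter table and 19 held the core, against 43.2% of all 35116 promoters. Among the 17 called genes found there, 14 held it, and of these PFKL rose. The genes were listed from general knowledge of the pathway. The share over all promoters, here and for interferon-stimulated genes below, covers genes tested or not, while each listed gene gave 1 promoter. The core is short and common, so a match describes letters and not a bound site. ANKRD37, an ankyrin repeat gene used as a hypoxia reporter, fell from 1.45 and 1.40 CPM to 0.284 and 0.295 CPM (log2 fold change -2.28, edgeR adjusted p = 0.001).

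Interferon-stimulated genes rose more often than they fell. Of 40 tested, 12 rose and 4 fell, with a median of 0.45, and 8 to 12 were higher and 1 to 3 lower with 1 library left out. XAF1, a pro-apoptotic protein induced by interferon, rose from 0.485 and 0.350 CPM to 7.74 and 7.49 CPM (log2 fold change 4.17, SE 0.38, edgeR adjusted p = 8.5e-07). The antiviral GTPases MX1 (1.77 and 2.38 CPM, then 12.8 and 11.2 CPM) and MX2 (0.104 and 0.0350 CPM, then 2.24 and 2.01 CPM) rose, as did the guanylate-binding protein GBP2 (1.70 and 2.27 CPM, then 15.0 and 16.9 CPM). HERC5, the ligase that attaches ISG15 to proteins, rose from 2.08 and 2.13 CPM to 12.9 and 14.1 CPM (log2 fold change 2.68, SE 0.25, edgeR adjusted p = 1e-06). ISG15, the ubiquitin-like modifier, rose from 25 and 29.0 CPM to 51.0 and 61.5 CPM (log2 fold change 1.06), and the mitochondrial protein IFI6 from 10.8 and 10.8 CPM to 33.3 and 26.0 CPM (log2 fold change 1.45). Genes of MHC class I and antigen presentation rose in 4 and fell in 2 of 23, with a median of 0.15, and the count that rose was between 0 and 4 with 1 library left out.

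Promoters of 3 interferon-stimulated genes are shown in the same way because they carry the core of the interferon response element, GAAANNGAA, searched on both strands with matches in capitals: ISG15 at chr1:1013247-1013496 (+ strand), IFI6 at chr1:27672193-27672442 (- strand) and HERC5 at chr4:88456869-88457118 (+ strand), each with 3 matches.
ISG15: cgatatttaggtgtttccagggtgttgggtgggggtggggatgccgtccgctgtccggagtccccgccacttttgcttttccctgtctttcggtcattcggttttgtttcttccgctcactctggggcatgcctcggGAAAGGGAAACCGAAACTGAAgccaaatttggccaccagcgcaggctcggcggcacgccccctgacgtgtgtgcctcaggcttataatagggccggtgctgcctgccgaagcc
IFI6: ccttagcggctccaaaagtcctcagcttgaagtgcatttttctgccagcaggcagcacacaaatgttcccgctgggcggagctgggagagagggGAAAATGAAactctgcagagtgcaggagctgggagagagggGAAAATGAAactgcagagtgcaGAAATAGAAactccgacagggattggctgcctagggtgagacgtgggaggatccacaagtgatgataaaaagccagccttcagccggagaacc
HERC5: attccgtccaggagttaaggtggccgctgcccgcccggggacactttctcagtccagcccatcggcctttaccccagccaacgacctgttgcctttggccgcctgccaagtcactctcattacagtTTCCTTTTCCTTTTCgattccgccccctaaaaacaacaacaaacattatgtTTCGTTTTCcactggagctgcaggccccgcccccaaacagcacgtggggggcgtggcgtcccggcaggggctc
The core was found in 6.88% of all 35116 promoters and in 17 of the 31 interferon-stimulated genes that were found in the table, which were listed because interferon is known to induce them. Among the 12 genes that rose or fell and were found there, 7 held it.

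Stress and metabolic lists moved in part, beside shares over all genes tested of 12.7% called higher and 12.2% called lower. Counts of the ER stress and cholesterol lists, given further below, lay close to these shares, as did those of MHC class I above. NRF2 targets and antioxidant enzymes rose in 10 and fell in 3 of 33, with a median of 0.32, and 6 rose and 1 or 2 fell with any 1 library left out. Thioredoxin reductase, TXNRD1, rose from 569 and 627 CPM to 1403 and 1350.5 CPM (log2 fold change 1.20, SE 0.21, edgeR adjusted p = 0.00058), and the cystine transporter SLC7A11 from 20.1 and 23.8 CPM to 58.7 and 55.9 CPM (log2 fold change 1.38). Heme oxygenase 1, HMOX1, a classical member of the same list, fell from 104 and 127 CPM to 23.2 and 25.7 CPM (log2 fold change -2.24, SE 0.18, edgeR adjusted p = 1.7e-07). NQO1 measured 376 and 429 CPM and then 502 and 492 CPM and was not called (edgeR adjusted p = 0.33). Of 12 genes of the aryl hydrocarbon receptor and xenobiotic enzymes, 6 fell and 2 rose, with a median of -0.97. CYP1B1, an enzyme that activates polycyclic hydrocarbons, fell from 241 and 252 CPM to 18.7 and 16.6 CPM (log2 fold change -3.80, SE 0.24, edgeR adjusted p = 1.8e-08), the receptor AHR fell from 135 and 138 CPM to 82.9 and 76.7 CPM, and its repressor AHRR rose from 14.1 and 13.5 CPM to 42.9 and 48.8 CPM. CYP24A1, which inactivates vitamin D, went from 1.56 and 1.61 CPM to no count, at least 17.3-fold lower.

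Of 5 metallothioneins tested, 2 fell, with a median of -0.91, and neither kept the call in every fit that left out 1 library. ER stress and heat shock genes fell in 5 and rose in 3 of 30 (2 or 3 lower and 1 higher with 1 library left out), with a median of -0.03 whose sign also turned under upper-quartile scaling. Amino acid genes diverged: asparagine synthetase, ASNS, fell from 14.6 and 19.3 CPM to 4.86 and 4.57 CPM and the leucine transporter SLC7A5 from 590.0 and 482 CPM to 117 and 123 CPM, while PHGDH, the entry enzyme of serine synthesis, rose from 23.4 and 31.3 CPM to 70.1 and 65.4 CPM. Cholesterol and fatty acid synthesis genes rose in 6 and fell in 4 of 34 (2 to 4 with 1 library left out), with a median of 0.27. HMGCS1, an early enzyme of the sterol pathway, rose from 95.1 and 107 CPM to 233 and 226 CPM (log2 fold change 1.19). Lysosomal genes rose in 6 and fell in 2 of 28, with a median of 0.15 and 2 to 4 higher with 1 library left out.

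Counts for proliferation genes depended on the libraries fitted. Of 40 S phase and DNA replication genes, 4 rose and 2 fell, with a median of 0.11, while 0 to 3 rose with 1 library left out and 15 rose and 7 fell with the 4 controls fitted alone. Of 38 mitosis genes, 1 rose and 1 fell, with a median of -0.07 that upper-quartile scaling brought to 0, while none was called with 1 library left out and 7 rose and 6 fell with the 4 controls fitted alone. The proliferation marker MKI67 measured 509 and 313 CPM and then 275 and 311 CPM (edgeR adjusted p = 0.22), and topoisomerase TOP2A measured 874 and 948 CPM and then 1220.0 and 1071 CPM (edgeR adjusted p = 0.28). The replication clamp PCNA measured 222 and 261 CPM and then 247 and 221 CPM (edgeR adjusted p = 0.91). PCNA values overlapped between the groups, and those of MKI67 lay apart by less than the spread between replicates. Among cyclins that start the cycle, D1 and E1 fell. CCND3 did not fall: its log2 fold change lay between 0.48 and 0.62 under the alternatives. The main fit called it higher, and 4 of 17 alternatives took that call away. Cyclin D1, CCND1, fell from 107 and 117 CPM to 19.8 and 24.5 CPM (log2 fold change -2.34, SE 0.35, edgeR adjusted p = 0.00014), and cyclin E1, CCNE1, from 9.14 and 9.10 CPM to 0.537 and 1.33 CPM (log2 fold change -3.27, SE 0.34, edgeR adjusted p = 4.1e-06), with -4.07 when 15-week replicate 2 was left out. Cell cycle inhibitors and senescence genes rose in 1 and fell in 2 of 22 (none rose with 1 library left out, and up to 9 fell under the alternatives), with a median of -0.15, and CDKN1A measured 30.0 and 34.9 CPM and then 31.8 and 26.4 CPM (edgeR adjusted p = 0.55).

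DNA repair genes rose in 4 and fell in 2 of 40, with a median of 0.05, while 1 or 2 rose with 1 library left out and 15 rose with the 4 controls fitted alone. The member MGMT, which removes alkyl groups from guanine, fell from 14.1 and 13.2 CPM to 5.53 and 4.01 CPM (log2 fold change -1.52). Over all genes tested, 12.7% were called higher and 12.2% lower. Main-fit counts of the lists in this paragraph and of the proliferation lists above lay near or below those shares. Of 59 replication-dependent histone genes 7 fell (3 to 7 with 1 library left out, up to 17 under the alternatives), with a median of -0.07, among them H4C9 from 103 and 107 CPM to 27.6 and 28.1 CPM. Of 78 cytosolic ribosomal protein genes 3 fell and none rose, with a median of -0.22, while 1 fell with 1 library left out and 34 fell and 11 rose with the 4 controls fitted alone. RPL10 went from 212 and 220.4 CPM to 108 and 113 CPM. Of 74 nuclear-encoded oxidative phosphorylation genes 3 rose and none fell, with a median of 0.04, while 0 to 2 rose with 1 library left out and 21 rose and 11 fell with the 4 controls fitted alone. Of 14 abundant small noncoding RNAs 2 rose, and 0 or 1 with 1 library left out.

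Homeotic and imprinted genes held some of the switches. Of 23 HOX genes tested, 6 rose and 2 fell (0 to 2 with 1 library left out), with a median of 0.00, although a filter of at least 10 counts in every library left none that rose. Those that rose included members of the HOXA cluster. HOXA10 had no count at 24 h and measured 1.39 and 1.56 CPM at 15 weeks, at least 14.1-fold higher, and HOXA5 likewise had no count and then 1.71 and 1.33 CPM, at least 14.5-fold higher. HOXA13 rose from 0.0693 and 0.210 CPM to 3.22 and 2.86 CPM (log2 fold change 4.41, SE 0.42, edgeR adjusted p = 1.6e-06), with 5.37 when 24 h replicate 2 was left out. These transcription factors set position along the body and limb axes. Of 17 imprinted genes, which are read from only 1 parental copy, 6 fell and none rose, with a median of -0.51 and 3 or 4 lower with 1 library left out. PEG10 fell from 330.0 and 252 CPM to 29.9 and 36.5 CPM (log2 fold change -3.13, SE 0.25, edgeR adjusted p = 2.3e-07), MEST fell from 376 and 436 CPM to 141 and 130.0 CPM, and MEG3, a noncoding RNA of chromosome 14, went from 1.25 and 0.700 CPM to no count, at least 10.6-fold lower. None of 6 cancer-testis genes tested was called.

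Surface markers of stem and mesenchymal cells rose in 3 and fell in 6 of 18, with a median of -0.56. The adhesion molecule L1CAM rose from 11.9 and 8.50 CPM to 42.7 and 45.0 CPM (log2 fold change 2.10), whereas MCAM fell from 148 and 165 CPM to 73.6 and 82.4 CPM and ICAM1 from 8.21 and 8.26 CPM to 2.56 and 2.33 CPM. ALDH1A3, an enzyme of retinoic acid synthesis, fell from 291 and 328 CPM to 31.9 and 32.9 CPM (log2 fold change -3.26, SE 0.15, edgeR adjusted p = 5e-10). Among abundant genes outside this list, UCHL1, a deubiquitinase abundant in neurons, rose from 165 and 182 CPM to 527 and 512 CPM (log2 fold change 1.58). Of 15 genes analysed here from the panel of putative biomarkers of lung cell transformation, 2 rose and 5 fell in these unexposed cells (3 to 5 with 1 library left out), with a median of -0.45. That panel too was chosen on these samples and is not independent evidence.

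**Figure D2:**
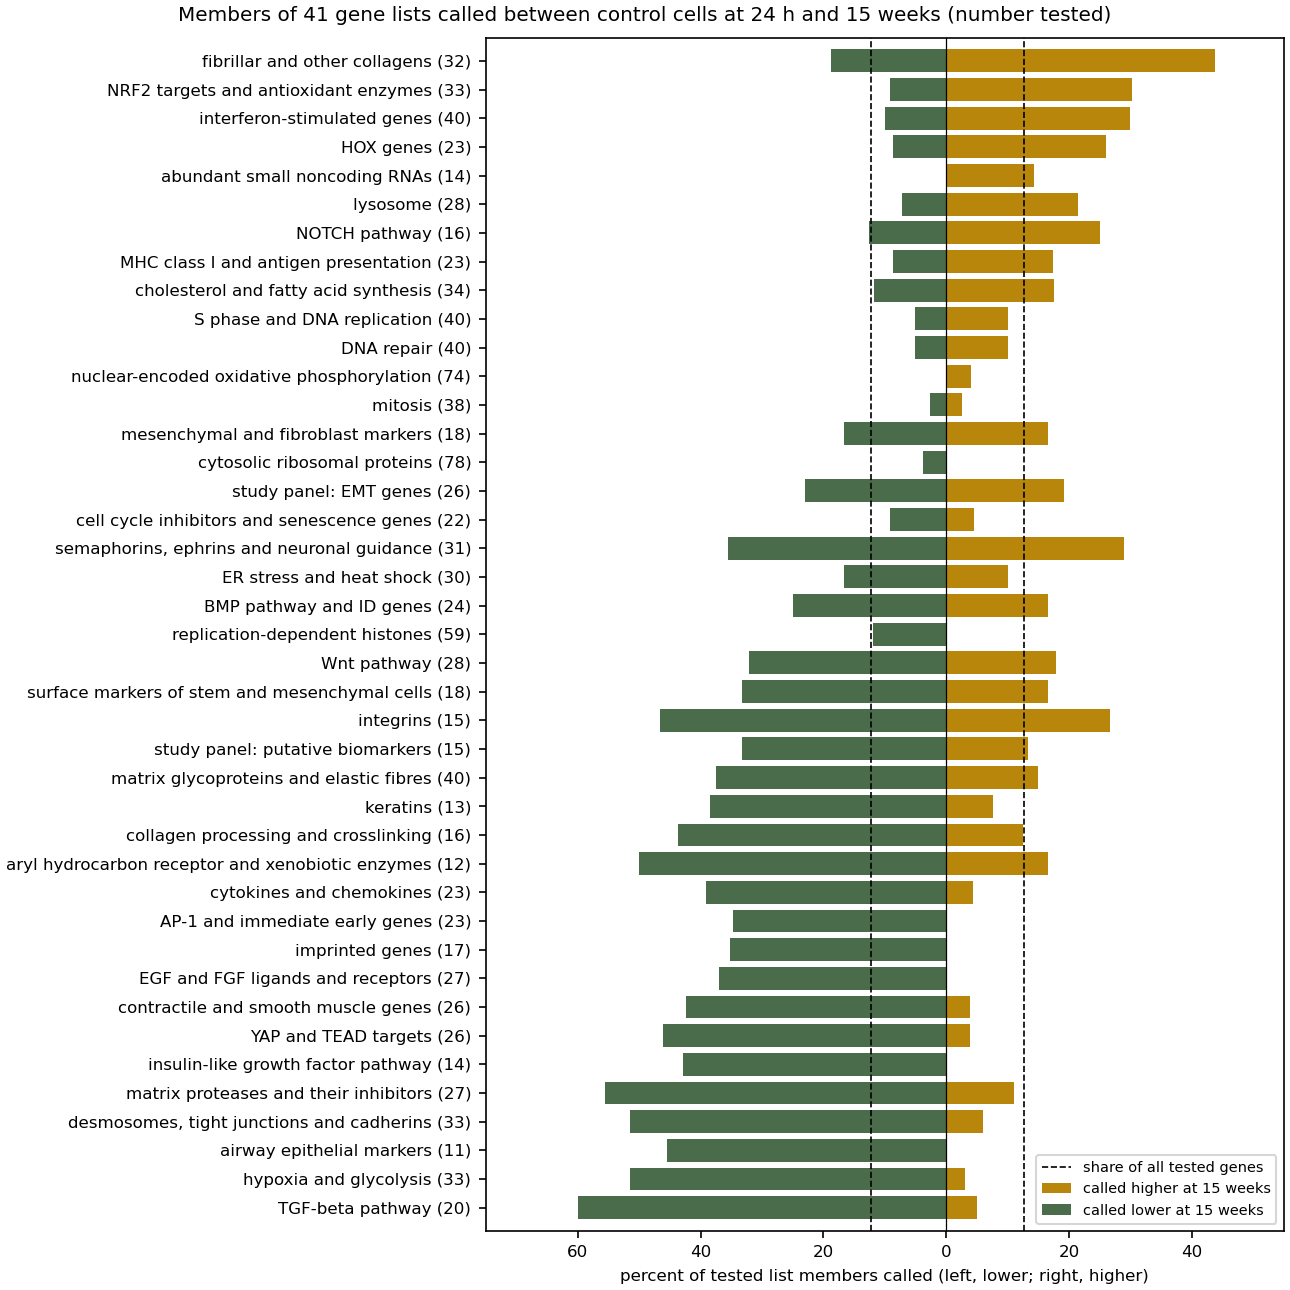
Percent of tested genes called higher (right) and lower (left) in the controls at 15 weeks in each gene list with at least 10 tested genes, with dashed lines at the shares over all genes tested, 12.7% higher and 12.2% lower. TGF-beta genes (12 of 20 lower) and hypoxia genes (17 of 33 lower) lie far past the dashed line on the left, collagens (14 of 32 higher) past that on the right, and mitosis genes (1 higher and 1 lower of 38) inside both.

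A second kind of change followed position along chromosomes. The tested genes were read in 164 windows of about 100 consecutive tested genes, and window medians of the log2 fold change ran from -0.79 to 0.69. In 31 windows the median lay at least 0.3 from 0, a limit set after the values were seen, and these joined into 5 regions that were lower and 8 that were higher at 15 weeks. Neighbouring genes share this measure, and genes are not replicates, so it is given as a description without a test. DNA copy number was not measured, and its part in these shifts was not tested.

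All of chromosome 14 lay lower. Over its 508 tested genes (chr14:19083134-105530198, GRCh38) the median log2 fold change was -0.67, with 252 genes lower and 14 higher. The chromosome's shift from the 24 h mean was -0.04 and 0.04 in the 24 h libraries and -0.65 and -0.68 in the 15-week libraries, so that both replicates carried it. Most of chromosome 4 (chr4:15935577-189963192, 460 genes) had a median of -0.50 with 171 genes lower, and the larger part of chromosome 18 (chr18:32511663-80247514, 127 genes) a median of -0.65 with 61 lower. Smaller lower regions lay on chromosome 5 (chr5:88717117-126595219, median -0.37) and chromosome 19 (chr19:55309444-58584395, median -0.32). Higher regions were the start of chromosome 5 (chr5:92168-38465480, 100 genes, median 0.62, 43 higher), the distal part of chromosome 3 (chr3:113747035-198222513, 425 genes, median 0.56, 178 higher) and that of chromosome 9 (chr9:72305436-138272073, 479 genes, median 0.47, 183 higher). Chromosomes 16, 17, 1 and X held the rest, with region medians between 0.34 and 0.54. On chromosomes 7 and 11, by comparison, window medians stayed between -0.18 and 0.06.

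The 5 lower regions held 7.74% of the tested genes and 25.7% of the genes that fell (525 genes), and the 8 higher regions held 10.5% of the tested genes and 27.7% of those that rose (590 genes). Outside all 13 regions, 2931 of 13686 tested genes were called, 21.4%. Named genes lay on both sides of this pattern. LTBP2, a latent TGF-beta binding protein on chromosome 14, fell from 60.8 and 44.5 CPM to 3.54 and 3.57 CPM (log2 fold change -3.89), and EREG, AREG, CXCL1, FGF5 and FGFBP1 fell on chromosome 4, each by more than the median of its region. Against their region's shift, EPHA5, HERC5, UCHL1 and SLC7A11 rose on chromosome 4, and NPR3 and CDH6 fell in the raised region of chromosome 5. MYLK, PODXL2 and HLTF rose in the raised region of chromosome 3, where HLTF, a helicase-like DNA repair factor, went from 116 and 135 CPM to 335 and 305 CPM (log2 fold change 1.35).

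**Figure D3:**
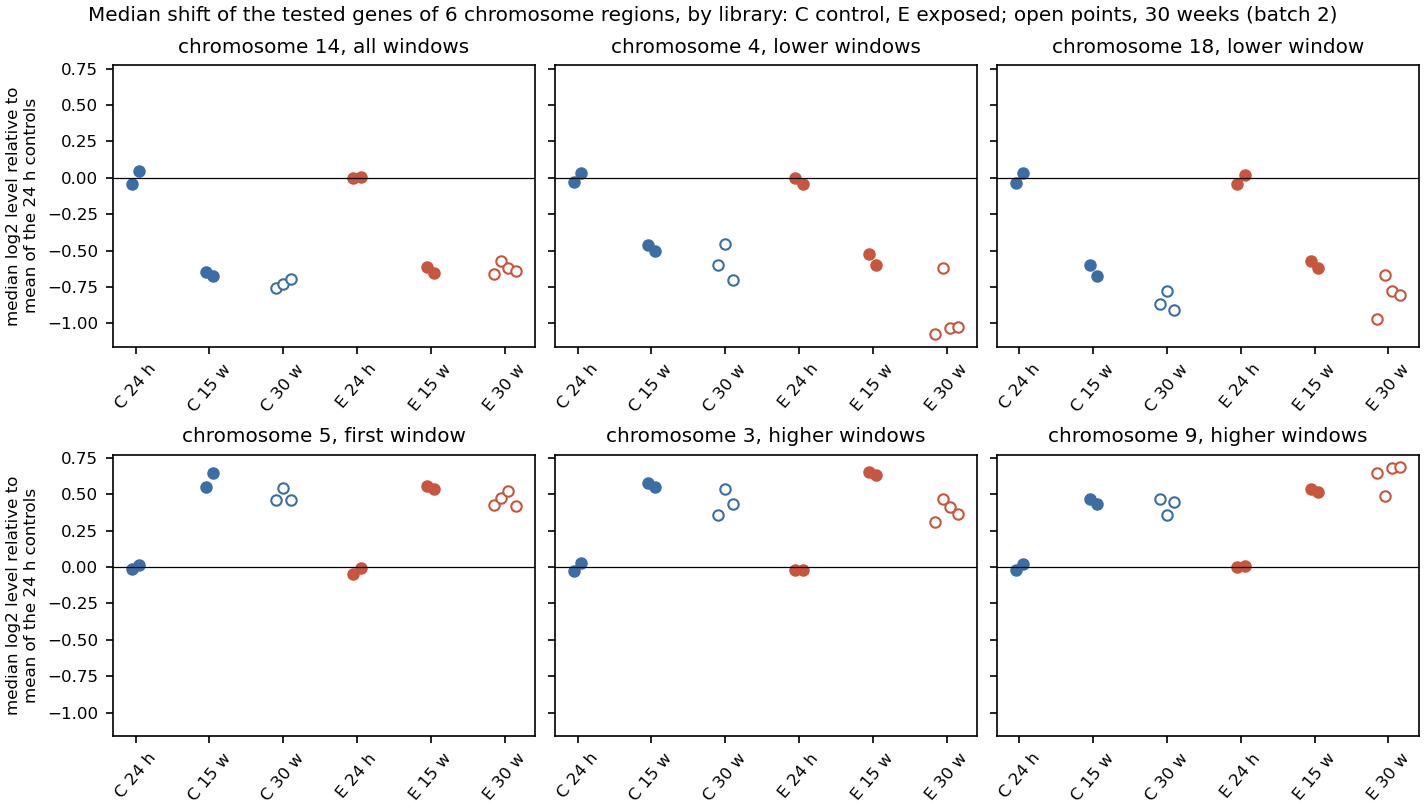
Shift of the median log2 CPM of the tested genes in 6 regions, in every library of the 6 conditions, relative to the mean of the 24 h controls; each point is 1 library. Chromosome 14 sits at -0.04 and 0.04 in the 24 h controls, at -0.65 and -0.68 in the 15-week controls and between -0.75 and -0.69 in the 30-week controls.

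The exposed cultures, which share no library with the controls, covered the same interval. Between 24 h and 15 weeks 4349 genes were called in them, 26.0% of the genes tested. Of these, 3156 were also called in controls, which is 75.6% of the control calls and 72.6% of the exposed calls, and all 3156 moved in the same direction. Of the 4174 genes called in controls, 98.4% had the same sign in exposed cultures, against 80.6% of all genes tested. Across the 16740 genes the log2 fold changes correlated with Pearson's r = 0.826 and Spearman's rho = 0.767, and the window medians with r = 0.937, given as descriptions over points that share libraries. All 31 shifted windows had the same sign in exposed cultures, and chromosome 14 had a median of -0.63 there, chromosome 3's region 0.70 and chromosome 4's region -0.53.

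For the named genes, log2 fold changes in exposed cultures were -7.88 for KRT7, -8.85 for KRT17, -3.42 for FN1, -5.11 for CD24 and -4.12 for CA9. Among genes that rose in controls they were 6.93 for SEMA3D, 8.09 for NCAM1, 6.23 for EPHA4, 4.67 for COL6A2 and 4.84 for XAF1. Each had the sign seen in controls. Among 20 TGF-beta genes 10 fell and 1 rose in exposed cultures, among 33 hypoxia genes 16 fell and 2 rose, and among 40 interferon-stimulated genes 11 rose and 3 fell. The difference between the 15-week change of exposed and control cultures was tested directly, and 0 of 16740 genes were called (edgeR, smallest adjusted p = 0.999912, 0%), with 644 genes at an unadjusted p under 0.05. DESeq2 and limma-voom also called 0. With the 8 libraries of batch 1 fitted alone 4 genes were called, among them KRT7 with a difference of -1.69 (SE 0.26, edgeR adjusted p = 0.0313) and PTGFR, a prostaglandin receptor named after its values were seen, with -1.80 (SE 0.29, edgeR adjusted p = 0.0371). KRT7 measured 6.39 and 5.29 CPM in the exposed cultures of 15 weeks against 23.4 and 12.7 CPM in the controls of that time. The 2 other called genes had no symbol.

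**Figure D4:**
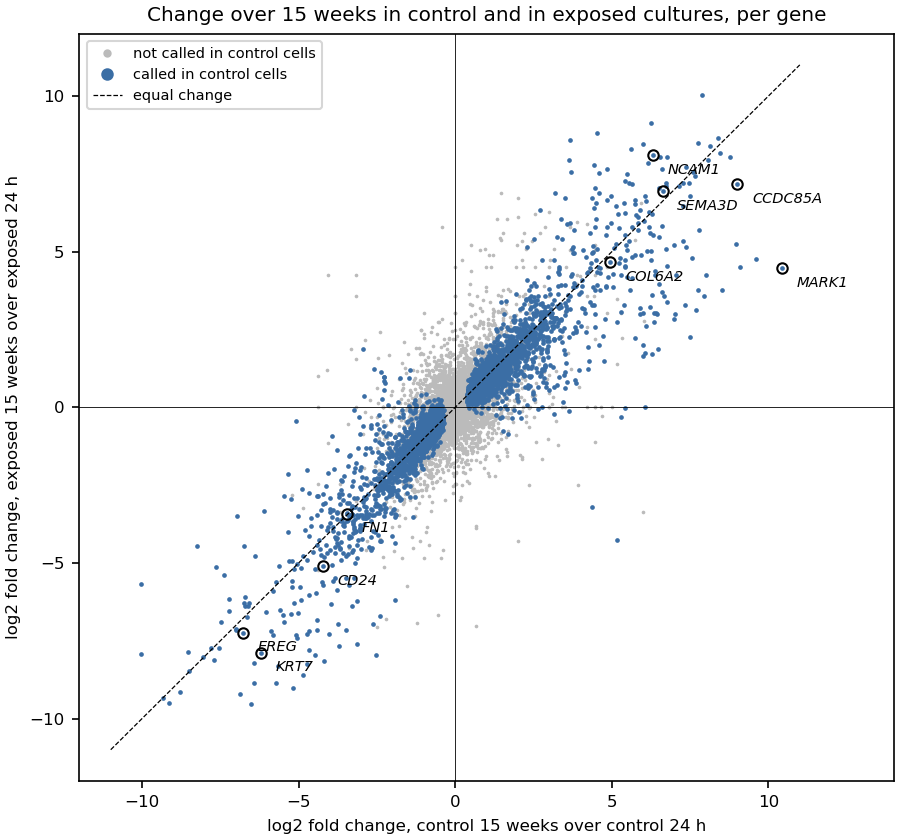
Log2 fold change of 15 weeks over 24 h for each tested gene in control cultures (horizontal) and exposed cultures (vertical), with genes called in controls in blue, the others in grey and a dashed line of equal change. Of the 4174 blue points, 98.4% lie in the quadrants of equal sign.

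The 30-week controls are set beside these values only as levels, since they were made in batch 2 and are compared with the same 15-week libraries, so that time and batch cannot be told apart. Some genes went further in the same direction. KRT7 measured 2.67, 1.88 and 1.25 CPM at 30 weeks, FN1 93.0, 119 and 132 CPM, THBS2 499, 478 and 556 CPM, and NCAM1 66.6, 69.6 and 83.8 CPM. Others lay back toward or past the 24 h level. ITGB4 measured 67.3, 32.1 and 84.7 CPM at 30 weeks, SNAI2 27.1, 26.9 and 24.4 CPM, LIF 13.6, 9.13 and 8.95 CPM, and CCND1 76.3, 61.8 and 51.1 CPM. SLC7A11, which had risen, measured 11.5, 13.5 and 13.1 CPM, and HMGCS1 63.0, 64.7 and 71.4 CPM, both below their 24 h values. Chromosome 14 kept its lower position, with shifts of -0.75, -0.73 and -0.69 in the 3 libraries of 30 weeks. The 6 small noncoding RNAs took 22.3 to 31% of counts at 30 weeks, and the part of that share in these values was not tested.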

How the data were processed

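Total RNA was sequenced after ribosomal RNA depletion with a stranded kit (TruSeq Stranded Total RNA). The deposited files hold counts of reads per gene for each of the 15 libraries, not normalized, which the authors made with Rfastp, Rsubread and featureCounts on hg38. The counting strand and the treatment of reads with several matches were not given in the sources used here, so overlapping genes and near-identical copies (histones, keratins, small noncoding RNAs, ribosomal proteins) are uncertain. Entrez identifiers were matched to symbols through a RefSeq table of GRCh38.p14, and 27745 of 28395 had one.

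Groups came from the labels. Counts were filtered with filterByExpr over the 6 conditions and scaled by TMM, and edgeR 4.0.16 (R 4.3.3) fitted all 15 libraries with 1 mean per condition and no covariate. Quasi-likelihood p-values were Benjamini-Hochberg adjusted over the 16740 genes kept, with calls at under 0.05. The contrasts were control 15 weeks minus 24 h, the same for exposed cultures, the difference of both, and control 30 weeks minus 15 weeks. CPM used TMM-scaled library sizes. Promoters and motif matches came from RefSeq sequences.

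Members and gene lists were chosen with earlier results of these data known. The text names the 10 largest changes in each direction at an average of at least 5 CPM, the 5 most abundant called genes in each direction with at least 2-fold change, key and strongest members of each list, and genes switching between at most 3 counts and at least 1 CPM; some are given only in counts or ranges, and a few are not reported here.

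Alternatives were DESeq2 1.42.0, limma-voom (limma 3.58.1) with and without surrogate variables (sva 3.50.0), batch 1 or the 4 controls alone, other filters and scalings, thinned counts, a replicate block and each library left out. On simulated counts of 16501 genes with 200 changed 4-fold between the 24 h and 15-week controls, 95% were found with 16 false calls. The changed genes were drawn above a minimum expected count and the spread was that of the fit. These figures therefore do not cover genes of low count or smaller changes.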

Additional observations from a re-analysis of the deposited data

How the results depend on the processing

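The number of genes called between the 15-week and 24 h controls (4174) stayed within 1.5 times under DESeq2 (4552), limma-voom (4217), upper-quartile scaling (4230), no filter (3991), a filter of at least 10 counts (3284), counts thinned to the total of the smallest library (3949), removal of 6 small noncoding RNAs (4152) and edgeR with its legacy option off (4293), an alternative chosen after seeing the data. It rose to 6549 with surrogate variables, 6841 with batch 1 alone and 6800 with the 4 controls alone, and dropped to 2472 at an adjusted p under 0.01 and 2168 at 2-fold or more. Leaving out 1 library gave 2462 to 2693. Called by both edgeR and DESeq2 in the same direction were 4136 genes, and by both edgeR and limma-voom 4044. Upper-quartile scaling moved the median of all genes by 0.07 and the share of calls that were higher from 51.1 to 58.7%. For exposed cultures the count (4349) became 7031 with batch 1 alone, and 2526 to 2919 with 1 library left out. The difference between both changes gave 4 genes with batch 1 alone and 0 with any library left out, and among genes with a symbol KRT7, DUSP1, RNVU1-6 and MIR3064 passed under limma-voom with surrogate variables (adjusted p = 0.0376 to 0.0496). Deviations of same-numbered replicates correlated by -0.10 in controls and -0.04 in exposed cultures. With 2 replicates in a group, these values cannot tell whether equal numbers mark a shared culture. With a replicate block, 5853 genes were called in the 4 controls, 6474 in the controls of batch 1 and 6686 in the exposed cultures. Of 364 named genes, 261 were called, 186 of them under every alternative, and none reversed. Of 138 alternative chromosome medians 33 moved, 23 of them under upper-quartile scaling. Medians of the lists near 0 (Wnt, NOTCH, ER stress, mitosis, DNA repair, histones, oxidative phosphorylation, HOX, MHC class I, small noncoding RNAs) and of the cancer-testis list changed sign under some alternatives. The 2 libraries in each group and 3 counts as the floor limit what low genes can show.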
